A study of Homo sapiens with 12 samples.

Results

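The superoxide dismutases and the enzymes that remove peroxides were measured as 10 genes: SOD1, SOD2, SOD3, CAT, GPX1, GPX3, GPX4, PRDX1, PRDX3 and PRDX6. They were taken by symbol from the 28901 named genes of the count table, and each had enough counts to be tested in every comparison. The RNA came from ASC52telo cells, human adipose-derived stromal cells immortalized with hTERT, cultured as adipocytes to day 14. All 4 groups had received a lentiviral shRNA vector and had been sorted for its ZsGreen marker. They differed in the shRNA, scramble (the control) or linc-ADAIN (knockdown, KD), and in the last hours of culture, without LPS or with LPS at 100 ng/mL for 4 h, with 3 libraries each. LPS is bacterial lipopolysaccharide, an inflammatory stimulus, and linc-ADAIN is a long intergenic non-coding RNA whose own level was not analysed here, so the knockdown itself is unchecked in these libraries and KD is the label's name. Every group had been differentiated with insulin, dexamethasone, isobutylmethylxanthine and rosiglitazone and then held in insulin and dexamethasone, so the LPS effect is read in cells under a glucocorticoid. The comparisons rest on a single immortalized line, with one shRNA vector per arm.

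Superoxide leaks from the respiratory chain and is made by NADPH oxidases. Superoxide dismutases turn it into hydrogen peroxide, with SOD1 in the cytosol, SOD2 in the mitochondrial matrix and SOD3 outside the cell. Catalase in peroxisomes, glutathione peroxidases and peroxiredoxins then reduce hydrogen peroxide or lipid peroxides, and the peroxidases draw their electrons from glutathione or thioredoxin and so from NADPH. SOD2 is a textbook target of NF-kB, the transcription factor activated by LPS, and catalase rises as stromal cells become fat-storing adipocytes.

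The libraries held 28.4 to 53.8 M counts on named genes, of which the 10 genes took 0.334% to 0.917% and SOD2 alone 0.0816% to 0.632%. Levels are given as CPM, each gene's counts as a share of the library, after scaling by trimmed mean of M values (TMM). Differences are log2 fold changes with their standard error (SE) from edgeR's quasi-likelihood test, called at a Benjamini-Hochberg adjusted p under 0.05 over all genes. The libraries of a group are a triplicate, so the p-values measure the spread between these libraries only. Where groups are said to overlap or not, this is description only, since the share of all genes without overlap was not counted. Defining adipocyte markers were present: adiponectin (ADIPOQ) averaged 919 CPM and FABP4 1981 CPM in the scramble control, whereas LPL and LEP stayed at 0 to 82 and 0 to 21 counts. The 10 adipocyte markers summed to 3197 to 4440 CPM in the scramble control, 646 to 1868 CPM in KD, 3712 to 4272 CPM in LPS-treated scramble and 523 to 1208 CPM in LPS-treated KD. Of the 10 markers, 7 were lower in KD without LPS and 8 with LPS, and none was called in either LPS comparison. Their median log2 difference under LPS was 0.0091 in scramble but -0.71 in KD. In bulk RNA, fewer adipocytes and less of these RNAs per adipocyte cannot be told apart. The 10 stromal markers summed to 4822 to 5775 CPM over all libraries, with DLK1 at 0 throughout, but 3 were higher and 3 lower in KD in each comparison. Without LPS, THY1 averaged 764 CPM in scramble and 148 CPM in KD, ENG 285 and 111 CPM and PDGFRB 977 and 523 CPM. In the other direction, PDPN averaged 5.69 and 116 CPM, COL1A1 1059 and 1663 CPM and PDGFRA 763 and 910 CPM. These values were singled out after they were seen. The 8 leukocyte markers summed to 4.66 to 7.63 CPM in the scramble groups and to 57.2 to 87.3 CPM in the KD groups. Most of that sum was CD163, which averaged 4.33 CPM in scramble and 68.6 CPM in KD, while the leukocyte marker PTPRC had 0 to 12 counts and TYROBP had none. The 5 endothelial markers summed to 23.6 to 27.1 CPM in scramble, 11.8 to 12.3 CPM in KD, 15.3 to 17.0 CPM in LPS-treated scramble and 8.45 to 13.2 CPM in LPS-treated KD. The part of these other markers in the results below was not tested.

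The superoxide dismutases moved in different directions. In KD adipocytes without LPS, SOD2 rose 2.28-fold, SOD3 fell and SOD1 did not pass the test. LPS raised SOD2 in both shRNA backgrounds, 5.20-fold in scramble and 2.93-fold in KD, and neither SOD1 nor SOD3 passed the test under LPS. The 300 bases around the transcription start are shown for 3 genes that went different ways, the induced SOD2 and the lowered SOD3 and CAT, from the RefSeq promoter table on GRCh38.p14, which held 7 of the 10 genes and had no entry for SOD1, PRDX1 or PRDX6. Each runs 5′ to 3′ from 250 bases before the start to 50 after it. Capitals mark the GC box GGGCGG and the CCAAT box on either strand.
SOD2: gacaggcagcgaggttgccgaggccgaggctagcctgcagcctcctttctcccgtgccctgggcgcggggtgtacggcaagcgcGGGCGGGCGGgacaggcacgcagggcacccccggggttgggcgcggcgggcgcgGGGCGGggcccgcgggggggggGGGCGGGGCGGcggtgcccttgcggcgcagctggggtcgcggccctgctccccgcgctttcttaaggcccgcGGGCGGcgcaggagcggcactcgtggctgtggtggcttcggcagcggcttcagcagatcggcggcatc
SOD3: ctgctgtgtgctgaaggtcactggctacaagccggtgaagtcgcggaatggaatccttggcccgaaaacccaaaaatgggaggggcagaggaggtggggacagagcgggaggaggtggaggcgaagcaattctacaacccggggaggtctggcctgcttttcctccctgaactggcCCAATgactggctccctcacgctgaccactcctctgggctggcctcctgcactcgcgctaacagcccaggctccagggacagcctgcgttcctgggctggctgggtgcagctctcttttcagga
CAT: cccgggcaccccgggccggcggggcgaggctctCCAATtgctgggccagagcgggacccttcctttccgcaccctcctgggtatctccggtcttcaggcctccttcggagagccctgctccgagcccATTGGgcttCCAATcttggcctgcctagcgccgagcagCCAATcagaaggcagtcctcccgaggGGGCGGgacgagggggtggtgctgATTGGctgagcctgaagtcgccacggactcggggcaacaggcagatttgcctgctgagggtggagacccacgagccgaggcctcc
These windows lie at chr6:159693192-159693491 on the minus strand, chr4:24795323-24795622 on the plus strand and chr11:34438684-34438983 on the plus strand. With overlapping matches counted, the SOD2 window held 6 GC boxes and 0 CCAAT boxes, the SOD3 window 0 and 1, and the CAT window 1 and 5. The windows not shown held 1 and 0 for GPX1, 1 and 2 for GPX3, 1 and 3 for GPX4 and 3 and 0 for PRDX3. Whether these boxes go with the direction of change was not tested. Of all 34943 promoter windows, 44.9% held a GC box and 34.6% a CCAAT box. The SOD2 window was 78.3% G and C, against 68.0% for CAT, 61.7% for SOD3 and a median of 58.7% over all windows. The NF-kB consensus was in 5.90% of all windows, the antioxidant response element core TGACNNNGC in 13.3% and the TATA box TATAAA in 11.6%, and none of the 7 matched genes had any of these letters in this window. The promoter table held 4 starts for SOD2 and 3 for GPX4, and only the window at the start of each gene's MANE transcript was scanned. Sites outside these windows were not looked for.

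SOD2 encodes the manganese superoxide dismutase of mitochondria and lies on chromosome 6 from 159669069 to 159693241, minus strand, with 5 exons in its MANE transcript (GENCODE 44, GRCh38). Its level in the scramble control was 834, 1008.5 and 859 CPM in the 3 libraries. In KD it was 2079.6, 2188 and 1876 CPM. In LPS-treated scramble it was 4366, 4679 and 4876 CPM, and in LPS-treated KD 6212, 5958 and 5841 CPM. The 4 groups stood in that order, 900.4 ± 94.5, 2048 ± 158, 4640.5 ± 257 and 6003 ± 189.7 CPM (SD, n = 3), and no library of one group reached the range of the next. KD raised SOD2 by 1.19 on the log2 scale without LPS (SE 0.090, adjusted p = 1.8e-06) and by 0.37 with LPS (SE 0.062, adjusted p = 0.00049). LPS raised it by 2.38 in scramble (SE 0.093, adjusted p = 7.1e-08) and by 1.55 in KD (SE 0.063, adjusted p = 5.2e-10).

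**Figure D1:**
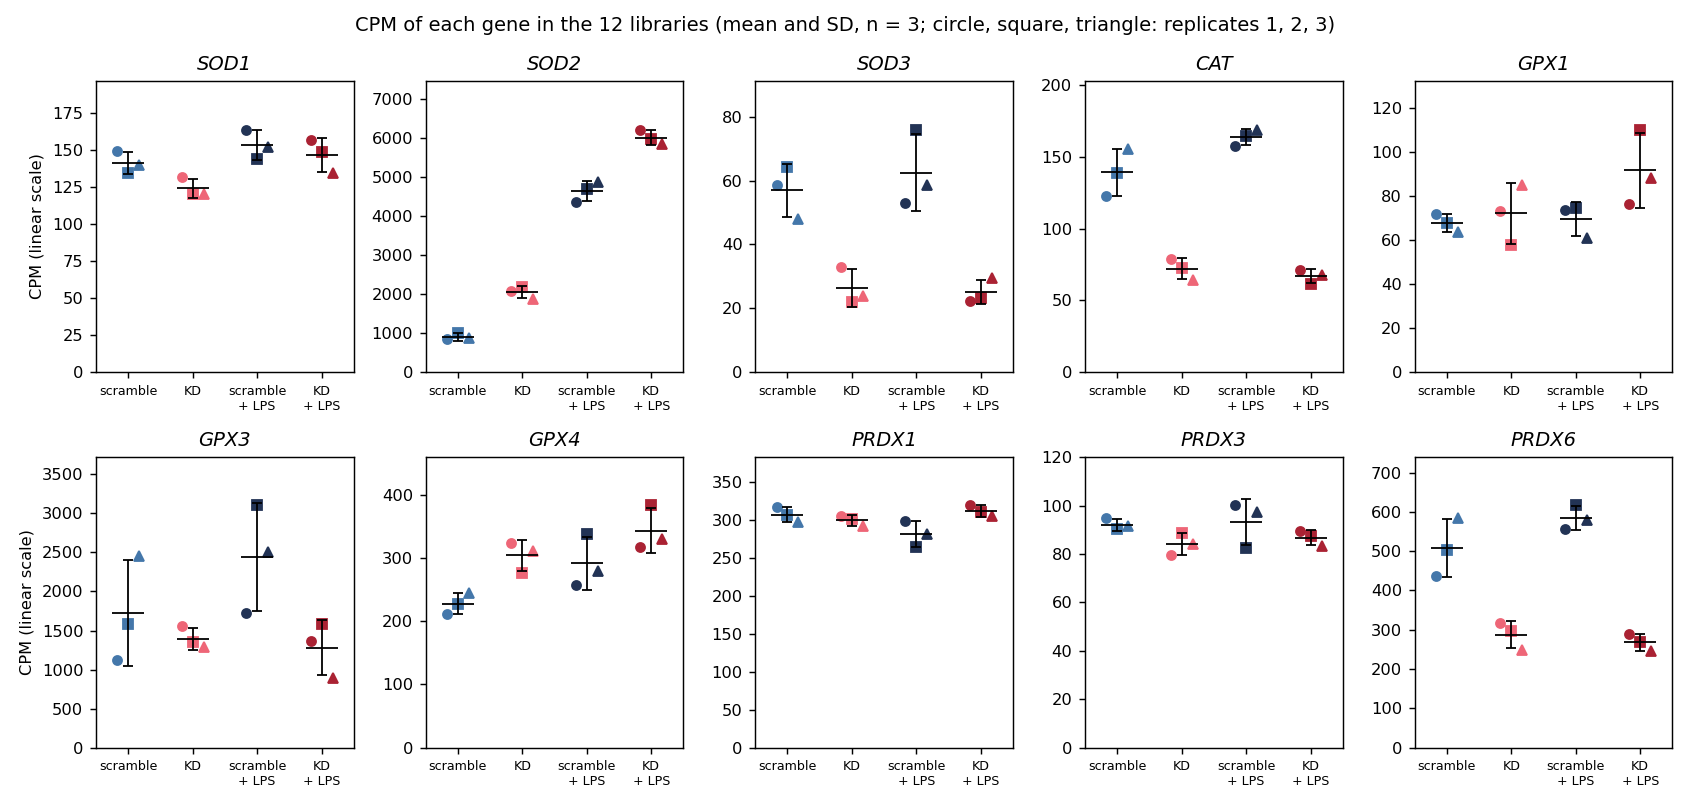
CPM (linear axis from 0) of the 10 genes in each of the 12 libraries by group, with the mean and SD of 3 libraries as bars and the replicate number as the marker shape. SOD2 rises over the 4 groups from 900.4 to 6003 CPM, SOD3, CAT and PRDX6 are lower in both KD groups, and SOD1, PRDX1 and PRDX3 lie within narrow bands.

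The effects of KD and LPS on SOD2 were less than multiplicative. The interaction, the KD effect with LPS minus that without, was -0.81 (SE 0.11, 95% interval -1.05 to -0.58, adjusted p = 0.00099, edgeR on all 12 libraries). SOD2 was the only one of the 10 genes called in this test, which called 1.28% of 17173 genes. In CPM rather than on the log scale, an alternative added after the data were seen, LPS added 3740 CPM (SE 158) in scramble and 3955 CPM (SE 143) in KD. Their difference was 215.2 CPM with an SE of 213, of the opposite sign to the log2 interaction and about as large as its own error. KD added 1148 CPM (SE 106) without LPS and 1363 CPM (SE 184) with it. By construction these rises differ by the same 215.2 CPM, so they are not a second check. The rises in CPM did not differ beyond their errors.

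**Figure D2:**
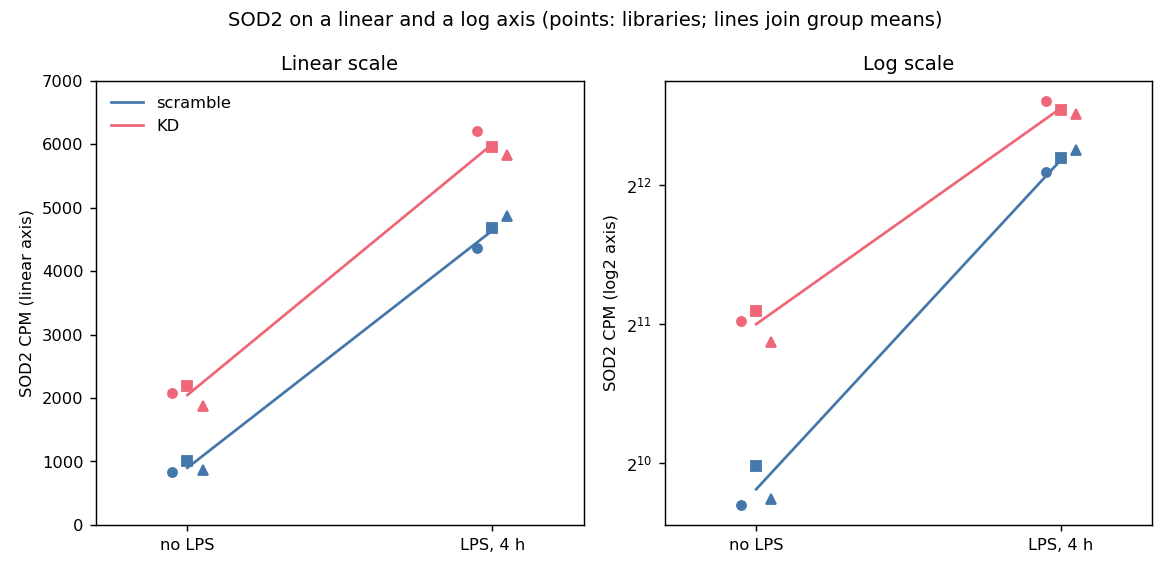
SOD2 CPM of each library without and with LPS for scramble and KD, on a linear axis and on a log2 axis, with lines joining the group means. The lines run nearly parallel on the linear axis, with rises of 3740 and 3955 CPM, and converge on the log2 axis, where the interaction was -0.81.

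SOD1 encodes the copper-zinc enzyme of the cytosol and lies on chromosome 21 from 31659693 to 31668931 (plus strand, 5 exons). Its libraries read 149.5, 135 and 139.8 CPM in scramble, 132, 120.3 and 120.5 CPM in KD, 164, 144 and 152 CPM in LPS-treated scramble and 157, 149 and 134 CPM in LPS-treated KD. Without LPS the KD libraries lay below all control libraries, but the difference of -0.18 (SE 0.077) did not pass (edgeR, adjusted p = 0.10). With LPS the groups overlapped and the difference was -0.064 (SE 0.085, 95% interval -0.25 to 0.12). The LPS differences were 0.13 in scramble (adjusted p = 0.33) and 0.24 in KD (adjusted p = 0.077). The LPS difference in KD passed at 0.029 with DESeq2. In KD the 3 LPS-treated libraries were all above the untreated ones.

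SOD3 encodes the secreted copper-zinc enzyme and lies on chromosome 4 from 24795573 to 24800842 (plus strand, 2 exons). Its levels were 58.6, 64.3 and 47.9 CPM in scramble and 33.0, 22.1 and 23.7 CPM in KD. With LPS they were 53.0, 76.0 and 58.5 CPM in scramble and 22.35, 23.3 and 29.3 CPM in KD. All 6 KD libraries were below all 6 scramble libraries. SOD3 was 2.17-fold lower in KD without LPS (log2 -1.12, SE 0.15, adjusted p = 0.00019) and 2.51-fold lower with LPS (log2 -1.33, SE 0.14, adjusted p = 1.1e-05). The LPS differences, 0.15 in scramble and -0.072 in KD, did not pass (edgeR, adjusted p = 0.56 and 0.86), and their intervals ran from -0.15 to 0.45 and from -0.41 to 0.27. Leaving out LPS-treated scramble replicate 2 turned the first to -0.016, and leaving out KD replicate 1 turned the other to 0.12.

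Catalase (CAT), the heme enzyme of peroxisomes, lies on chromosome 11 from 34438934 to 34472060 (plus strand, 13 exons). It measured 123, 139 and 156 CPM in scramble and 79.1, 72.8 and 64.5 CPM in KD. After LPS the scramble libraries held 158, 165 and 169 CPM and the KD libraries 71.1, 61.5 and 67.9 CPM. The 6 KD libraries were again below the 6 scramble libraries, and in scramble the LPS-treated libraries all exceeded the untreated ones. CAT was 1.92-fold lower in KD without LPS (log2 -0.94, SE 0.10, adjusted p = 3.7e-05) and 2.45-fold lower with LPS (log2 -1.29, SE 0.083, adjusted p = 6.9e-08). The LPS difference of 0.25 in scramble (SE 0.090) did not pass (edgeR, adjusted p = 0.094). It passed at 0.047 with DESeq2, at 0.031 without scramble replicate 3 and at 0.018 with the replicate number as a block. In KD the LPS difference was -0.11 (SE 0.098, adjusted p = 0.58), and the interaction of -0.35 (SE 0.13) did not pass the test (adjusted p = 0.30).

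All 3 glutathione peroxidases here are selenoproteins. GPX1, the abundant soluble form inside cells, lies on chromosome 3 from 49357176 to 49358353 (minus strand, 2 exons). It read 71.9, 67.8 and 63.6 CPM in scramble, 73.4, 57.55 and 85.1 CPM in KD, 73.5, 74.5 and 60.9 CPM in LPS-treated scramble and 76.4, 110.2 and 88.2 CPM in LPS-treated KD. The untreated groups overlapped, with a KD difference of 0.091 (adjusted p = 0.64, edgeR) that turned to -0.045 without KD replicate 3. With LPS the KD libraries were all above the scramble libraries, and GPX1 was higher by 0.40 (SE 0.13, adjusted p = 0.032). That call was lost without LPS-treated scramble replicate 3 (adjusted p = 0.15) and without LPS-treated KD replicate 2 or 3 (adjusted p = 0.19 and 0.054). The LPS differences were 0.051 in scramble (adjusted p = 0.79) and 0.35 in KD (SE 0.14, adjusted p = 0.15). The KD value passed at 0.011 with the replicate number as a block and at 0.022 without the filter on low counts.

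GPX3, the secreted form that circulates in plasma, lies on chromosome 5 from 151020591 to 151028988 (plus strand, 5 exons). Its coefficient of variation was the highest of the 10 genes in the 3 groups other than KD without LPS, with 1117, 1589 and 2455 CPM in scramble, 1554.5, 1349 and 1287 CPM in KD, 1720.3, 3104 and 2503 CPM in LPS-treated scramble and 1364.5, 1584 and 897 CPM in LPS-treated KD. Without LPS the groups overlapped and the KD difference was -0.30 (SE 0.21, 95% interval -0.75 to 0.16, adjusted p = 0.33, edgeR). It became 0.040 without scramble replicate 3, the library with the highest GPX3 and adipocyte marker sum of its group, and -0.53 with an adjusted p of 0.025 without scramble replicate 1. With LPS the groups did not overlap, and GPX3 was 1.91-fold lower in KD (log2 -0.93, SE 0.20, adjusted p = 0.0033). The LPS difference was 0.52 in scramble (SE 0.25, adjusted p = 0.21) and -0.12 in KD (adjusted p = 0.69). The scramble value passed at 0.032 without scramble replicate 3 and at 0.0011 with the replicate number as a block.

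GPX4 reduces lipid hydroperoxides in membranes and is the enzyme whose loss triggers ferroptosis. It lies on chromosome 19 from 1103994 to 1106779 (plus strand, 7 exons). Its libraries held 211, 227 and 245 CPM in scramble, 324, 276 and 311.5 CPM in KD, 257, 338 and 279 CPM in LPS-treated scramble and 317, 383 and 329 CPM in LPS-treated KD. Scramble without LPS was the lowest group and did not overlap KD or LPS-treated scramble. GPX4 rose 1.34-fold in KD without LPS (log2 0.42, SE 0.087, adjusted p = 0.0034, edgeR). With LPS the KD difference was 0.24 (SE 0.10, adjusted p = 0.12). It passed at 0.015 without LPS-treated scramble replicate 2, at 0.012 with the replicate number as a block and at 0.040 with scaling to library size alone. LPS raised GPX4 by 0.37 in scramble (SE 0.10, adjusted p = 0.034). That call held in 2 of 6 fits with a library left out, those without scramble replicate 3 or LPS-treated scramble replicate 1, and the adjusted p reached 0.12 in the others. In KD the LPS difference was 0.17 (adjusted p = 0.25).

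Among the peroxiredoxins, PRDX1 of the cytosol and PRDX3 of the mitochondria, both reduced by thioredoxin, passed the test in no comparison. PRDX1 (chromosome 1, 45511051 to 45521884, minus strand, 6 exons) read 317, 306 and 297 CPM in scramble, 305, 301 and 291 CPM in KD, 298, 264 and 281 CPM in LPS-treated scramble and 319, 311 and 304 CPM in LPS-treated KD. Its differences ran from -0.11 for LPS in scramble to 0.15 for KD with LPS, where the groups did not overlap (SE 0.073, adjusted p = 0.17, edgeR). PRDX3 (chromosome 10, 119167720 to 119178812, minus strand, 7 exons) read 94.9, 90.2 and 91.4 CPM in scramble, 79.4, 88.9 and 84.1 CPM in KD, 100.2, 82.6 and 97.2 CPM in LPS-treated scramble and 89.7, 87.4 and 83.3 CPM in LPS-treated KD. Without LPS each KD library was below the control libraries, by -0.13 (95% interval -0.29 to 0.039, adjusted p = 0.25). The other PRDX3 differences lay between -0.11 and 0.044.

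PRDX6, a peroxiredoxin that reduces phospholipid peroxides with glutathione and also carries phospholipase activity, lies on chromosome 1 from 173477335 to 173488815 (plus strand, 5 exons). It differed from the other peroxiredoxins here: scramble libraries held 437, 502 and 585 CPM and KD libraries 318, 296 and 249.5 CPM. After LPS the values were 557, 617 and 579 CPM in scramble and 290.4, 268 and 247 CPM in KD. No KD library reached a scramble library. PRDX6 was 1.76-fold lower in KD without LPS (log2 -0.81, SE 0.12, adjusted p = 0.00026, edgeR) and 2.18-fold lower with LPS (log2 -1.12, SE 0.080, adjusted p = 1.9e-07). LPS differences were 0.22 in scramble (adjusted p = 0.20) and -0.10 in KD (adjusted p = 0.59). The scramble value passed at 0.041 without scramble replicate 3 and at 0.049 with the replicate number as a block.

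Counted together, 2 of the 10 genes were higher in KD without LPS (SOD2 and GPX4) and 3 were lower (SOD3, CAT and PRDX6), where 12.1% of the 16217 genes tested were higher and 15.1% lower. SOD2 and SOD3 also differed at least 2-fold, against 7.77% of all genes. With LPS, 2 genes were higher in KD (SOD2 and GPX1) and 4 lower (SOD3, CAT, GPX3 and PRDX6), beside 12.7% and 14.2% of 15981 genes, and SOD3, CAT and PRDX6 were past 2-fold, beside 8.48%. LPS in scramble raised 2 (SOD2 and GPX4) and lowered 0, beside 5.9% and 8.38% of 15920 genes, and in KD it raised SOD2 alone, beside 5.32% raised and 6.03% lowered of 16169 genes. SOD2 was the 1 gene past 2-fold in each LPS comparison, beside 2.68% and 2.25% of all genes. The median log2 differences of the 10 genes were -0.16, -0.085, 0.18 and 0.051 in these 4 comparisons, beside 0.024, 0.025, 0.020 and 0.0099 over all genes. Each KD comparison shares a group of libraries with each LPS comparison. Scaling to library size alone shifted all genes by 0.10 upward in KD without LPS, moving the share of higher calls from 44.5% to 61.4%. That share went from 47.2% to 59.2% in KD with LPS and from 46.9% to 35.2% for LPS in KD. Upper quartile scaling moved that share from 74.0% to 62.9% for the interaction.

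**Figure D3:**
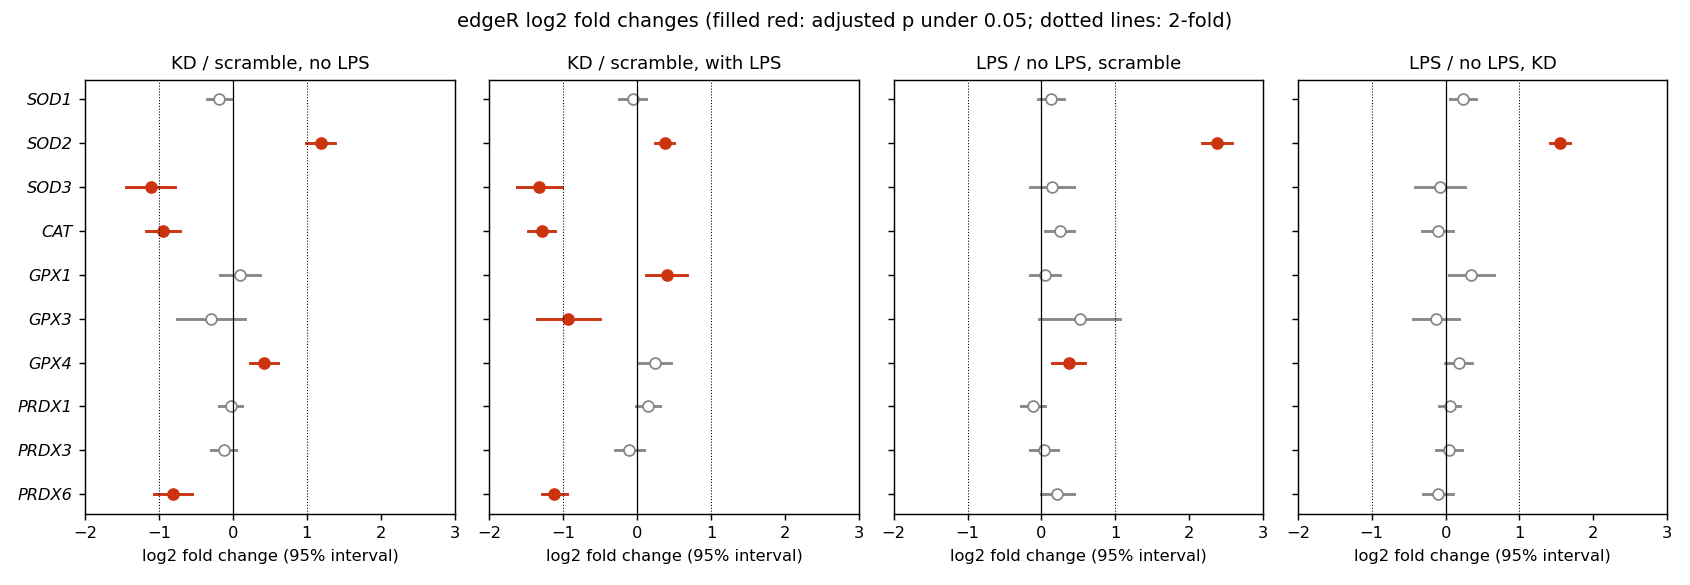
Log2 fold change of the 10 genes with its 95% interval in the 4 comparisons, filled red where the adjusted p was under 0.05, with dotted lines at 2-fold. SOD2 is to the right in every panel, from 0.37 to 2.38, and SOD3, CAT and PRDX6 are to the left in both KD panels, from -0.81 to -1.33.

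Ratios between genes within a library do not depend on the scaling. The counts of SOD2 were 6.40 ± 0.983 times those of SOD1 in scramble, 16.5 ± 1.45 in KD, 30.4 ± 3.27 in LPS-treated scramble and 41.0 ± 2.12 in LPS-treated KD (SD, n = 3). Relative to CAT, SOD2 counts were 6.52 ± 0.898, 28.5 ± 1.96, 28.3 ± 0.574 and 90.0 ± 5.90 in the same order. The SOD2 to CAT ratios of LPS-treated scramble, 27.7 to 28.8, lay inside the range of KD without LPS, 26.3 to 30.1. In KD both genes had moved, SOD2 upward and CAT downward, whereas under LPS SOD2 alone passed the test. The SOD2 to PRDX3 ratio, both mitochondrial enzymes, went from 9.79 ± 1.25 to 24.4 ± 1.95, 50.1 ± 6.53 and 69.2 ± 0.968. Among peroxidases, the CAT to PRDX1 ratio was 0.455, 0.241, 0.585 and 0.215, the PRDX6 to PRDX1 ratio 1.66, 0.961, 2.09 and 0.861, and the GPX3 to GPX4 ratio 7.43, 4.60, 8.29 and 3.72.

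Per kb of MANE transcript, GPX3 had the highest level of the 10 genes in each group (1073, 871, 1524 and 800 CPM per kb in scramble, KD, LPS-treated scramble and LPS-treated KD) and SOD3 the lowest (40.2, 18.5, 44.1 and 17.6). With the median length of each gene's protein-coding transcripts, SOD3 was 8th of 10 in both scramble groups, 10th in KD and 9th in LPS-treated KD, and GPX3 was second to SOD2 in both LPS groups. In scramble, PRDX1 at 325 ± 10.7, PRDX6 at 301 ± 43.8 and GPX4 at 268 ± 20.1 CPM per kb lay within or near each other's spread, followed by SOD1 at 158 ± 8.44. GPX1 at 75.4 ± 4.63, CAT at 60.7 ± 7.14 and PRDX3 at 59.3 ± 1.57 were lower, and the last pair did not differ beyond their SD. The place of SOD2 cannot be fixed from gene counts: with its MANE transcript of 14167 bases it read 63.6 CPM per kb in scramble and 424 in LPS-treated KD, but with 917 bases, the median of its 11 protein-coding transcripts, 982 and 6547.

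Across the 12 libraries, CAT and PRDX6 had the most similar patterns of any pair among the 10 genes, with a root mean square difference of 0.10 between their centred log2 CPM, followed by SOD1 with PRDX3 (0.11), PRDX1 with PRDX3 (0.11), SOD1 with PRDX1 (0.15) and GPX1 with GPX4 (0.21). Among the 11811 genes averaging 50 counts or more, those closest to CAT were HADH (0.075), TMEM64 (0.096) and PRDX6 itself. CAT's own root mean square spread was 0.58. HADH, a mitochondrial enzyme of fatty acid oxidation, held 58.0, 28.8, 65.6 and 27.1 CPM in scramble, KD, LPS-treated scramble and LPS-treated KD. PRDX6 (own spread 0.51) had FKBP5 (0.081), a glucocorticoid-induced immunophilin, and PPA1 (0.084), a pyrophosphatase, among its closest genes. SOD3 (own spread 0.65) was closest to ANPEP (0.18), KLF4 (0.19) and CST3 (0.20), an aminopeptidase, a transcription factor and the protease inhibitor cystatin C. SOD2 (own spread 1.08) was closest to the chemokines CXCL2 (0.23) and CXCL6 (0.29) and to NFKB2 (0.28), an NF-kB subunit. CXCL2 averaged 33.7, 54.6, 129 and 219 CPM over the groups, and NFKB2 32.6, 45.7, 137 and 182 CPM. These values describe libraries that share the 4 groups and carry no test.

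Of the 4 genes that were lower in KD with LPS, PRDX6 had the library order of the adipocyte marker sum in all 4 groups, CAT and GPX3 in some and SOD3 in 1. With 3 libraries per group few orders are possible, and the share of all genes with the same order was not counted. The orders below are therefore description only. In scramble replicates 1, 2 and 3 the marker sum was 3197, 3630 and 4440 CPM, and CAT, GPX3 and PRDX6 ranked the 3 libraries in the same order. In KD replicates 1, 2 and 3 the sum was 1868, 1427 and 646 CPM, and CAT, GPX3 and PRDX6 again ranked them in that order. In LPS-treated KD, with sums of 1208, 830 and 523 CPM, PRDX6 kept that order and CAT and GPX3 did not, but SOD1, SOD2, PRDX1 and PRDX3, none of them called lower in KD, had it too. GPX4 had the order of the sum in both scramble groups, and PRDX1 had it in untreated KD, so this order was not limited to the lowered genes. In LPS-treated scramble, with sums of 3712, 4272 and 3962 CPM, PRDX6, GPX3 and SOD3 had the order of the sum and CAT did not. SOD3 had another order in the remaining groups. SOD2 was 6212, 5958 and 5841 CPM in the LPS-treated KD libraries and 2079.6, 2188 and 1876 CPM in the untreated KD libraries. How much the markers account for the lower levels was not tested, and marker level and shRNA cannot be told apart in these libraries.

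**Figure D4:**
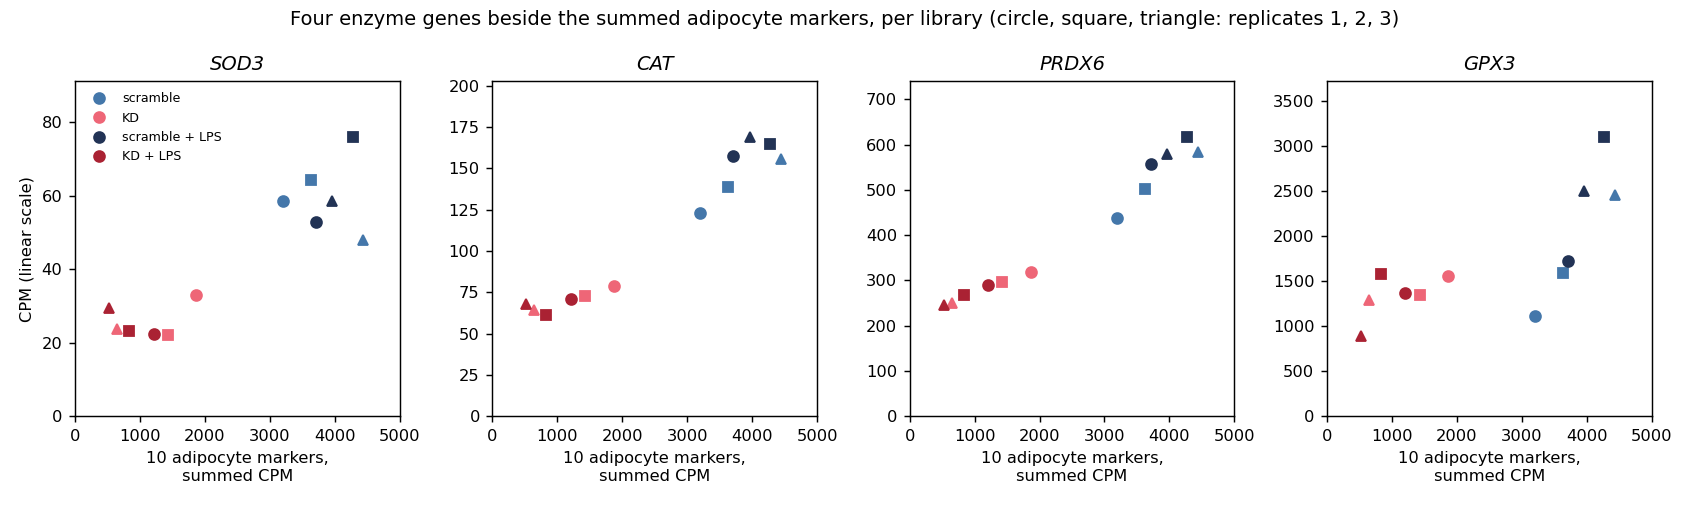
CPM of SOD3, CAT, PRDX6 and GPX3 in each library (linear axis from 0) against the summed CPM of the 10 adipocyte markers in that library, coloured by group. The KD libraries lie between 523 and 1868 CPM of marker sum and the scramble libraries between 3197 and 4440. No KD library shares a marker level with a scramble library, so marker level and shRNA cannot be told apart in these data.

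Enzymes that work beside the 10 genes were taken from lists whose choice is described with the processing. The counts per list below stand beside these shares of all genes tested. In KD 12.1% were higher and 15.1% lower without LPS, and 12.7% and 14.2% with LPS. LPS raised 5.9% and lowered 8.38% in scramble, and 5.32% and 6.03% in KD. No list was tested as a set. Of the other peroxiredoxins and glutathione peroxidases, 5 of 8 could be tested. PRDX4, the enzyme of the endoplasmic reticulum, was lower in KD without LPS (-0.55, SE 0.095) and with LPS (-0.70, SE 0.088). PRDX2 was higher by 0.44 and 0.49, although the first call was lost with the replicate number as a block (adjusted p = 0.051) and in 4 of 6 fits with a library left out (adjusted p up to 0.11). None of the 5 was called in either LPS comparison. In the thioredoxin system of 7 genes, 1 was higher and 2 lower in KD without LPS, and 0 and 2 with LPS. Sulfiredoxin (SRXN1), which repairs overoxidized peroxiredoxins, was lower by -0.56 and -0.74, and thioredoxin reductase TXNRD1 by -0.81 and -0.30. TXNIP, an inhibitor of thioredoxin, was higher in KD without LPS (0.56) and fell under LPS, by 0.66 in scramble and by 0.92 in KD. LPS raised SRXN1 by 0.44 in scramble and 0.26 in KD, TXN by 0.30 in KD, and lowered TXNRD1 in scramble by 0.29. In that system 1 gene was higher and 2 lower under LPS in scramble, and 2 and 1 in KD. The LPS calls of TXNIP in both backgrounds and of SRXN1 in scramble held in 6 of 6 fits with a library left out. TXNRD1 in scramble and SRXN1 in KD each lost theirs in 5 of 6 fits (adjusted p up to 0.10 and 0.092), and TXN in 3 of 6 (up to 0.070).

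The peroxidases draw on glutathione and NADPH. Among 10 genes of glutathione synthesis and recycling, 3 were higher and 2 lower in KD without LPS, and 2 and 3 with LPS. Glutaredoxin GLRX was higher by 1.16 and 0.82 and the transporter subunit SLC3A2 by 0.99 and 0.88, glutathione synthetase GSS was higher by 0.81 without LPS, and glutathione reductase GSR was lower by -0.78 without LPS and -1.17 with LPS. The GSR value without LPS and that of MTHFD2 under LPS in scramble were added after they were seen. LPS raised 4 of the 10 in each background, among them the cystine transporter SLC7A11 (0.95 in scramble, 0.91 in KD), GCLM (0.75 and 0.70), a subunit of the rate-limiting ligase, its partner GCLC in KD (0.80) and GLRX in scramble (0.72), and lowered 1 in scramble and 0 in KD. Of 8 NADPH-supplying genes, 6 were lower and 1 higher in KD in both comparisons. The pentose phosphate enzymes PGD and TALDO1 were lower by -1.42 and -0.96 without LPS and by -1.93 and -0.95 with LPS. Under LPS, 3 of the 8 were higher and 1 lower in scramble, and 1 and 1 in KD: PGD (0.54) and NNT (0.47) were higher in scramble, and MTHFD2 was higher in both (0.44 in scramble, 0.43 in KD). The LPS call of GCLC was lost without LPS-treated KD replicate 2 or 3 (adjusted p = 0.059 and 0.068). PGD and TALDO1 stand beside the same fall of the adipocyte markers, whose part in it was not tested.

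Metals and selenium reach these enzymes through other gene products. Of 8 metal delivery genes, 1 was higher in KD without LPS and 3 with LPS, and none was lower. The mitochondrial iron importer SLC25A37 was higher by 0.46 and 0.56, and SLC39A14, a plasma membrane carrier of zinc, iron and manganese, by 0.35 with LPS, as was the copper importer SLC31A1 by 0.26. LPS raised SLC39A14 2.67-fold in scramble (log2 1.42, SE 0.10) and 2.96-fold in KD (log2 1.56, SE 0.064), 1 of 8 and 2 of 8 genes called, the other being SLC25A37 (0.36). Of 8 genes of selenium transport and selenoprotein synthesis, 2 were higher and 1 lower in KD without LPS and 2 and 2 with LPS. Selenoprotein P (SELENOP), the selenium carrier, was higher by 2.15 and 2.26 at a low level (4.04 CPM in scramble, 17.8 CPM in KD). SECISBP2 was higher by 0.43 without LPS, SCLY was lower by -0.38 and -0.60 and LRP8, the selenoprotein P receptor, by -0.48 with LPS. LPS lowered 1 of the 8 in scramble, SCLY (-0.42), and 2 in KD, LRP8 (-0.67) and SCLY (-0.65), and raised none. With single libraries left out, SLC31A1 lost its call in 5 of 6 fits (adjusted p up to 0.16), LRP8 in KD with LPS in 4 (up to 0.10) and SCLY in KD without LPS in 5 (up to 0.11). SCLY under LPS lost it without scramble replicate 2 (0.061) and without KD replicate 1 or LPS-treated KD replicate 3 (0.0677 and 0.0505), and SLC25A37 without the latter pair (0.066 and 0.079).

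Of 20 genes of superoxide and hydrogen peroxide sources, 13 to 15 could be tested in each comparison of groups. In KD 1 was higher and 3 lower, both without and with LPS. MAOB, an amine oxidase of mitochondria, was higher by 4.17 and 5.07 from a level of 0.509 CPM in scramble, and AOC3, the amine oxidase of the adipocyte surface, was lower by -1.75 and -2.59. POR, the cytochrome P450 reductase, was lower by -0.95 and -0.81. LPS raised 1 gene in each background and lowered none. In KD it was MAOB (0.85), which lost its call in 4 of 6 fits with a library left out (adjusted p up to 0.13). The NADPH oxidase NOX4 averaged 0.312 to 0.487 CPM. Of 15 regulators and stress genes, 4 were higher and 2 lower in KD without LPS, and 6 and 1 in its presence. LPS itself raised 6 in scramble and 7 in KD and lowered 1 in each. HMOX1, heme oxygenase, was higher in KD by 1.18 and 0.90, RELB by 0.64 and 0.45 and NFKB2 by 0.49 and 0.41. With LPS, RELB and NFKB2 each lost this call in 2 of 6 fits with a library left out (adjusted p up to 0.10 and 0.074). LPS raised the NF-kB subunits NFKB2 (2.09 in scramble, 2.00 in KD), NFKB1 (1.29 and 1.67) and RELB (1.21 and 1.01).

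The 10 NF-kB-responsive reference genes give the scale for SOD2. LPS raised all 10 in both backgrounds, with medians of 1.83 in scramble and 2.21 in KD, next to 2.38 and 1.55 for SOD2. TNFAIP2 rose most, by 4.47 and 4.66, and ICAM1 by 2.70 in scramble. KD raised 7 without LPS and 8 with LPS and lowered none, with medians of 0.78 and 1.05, next to 1.19 and 0.37 for SOD2. BIRC3 was higher in KD by 2.86 and 3.03, CXCL8 by 1.63 and 1.79, ICAM1 by 1.61 without LPS and IL6 by 1.94 with LPS. The interaction was positive for the 2 of these 10 that passed it, IL6 (1.17, SE 0.13, adjusted p = 0.00014) and CCL2 (1.15, SE 0.23, adjusted p = 0.016, and 0.057 without scramble replicate 2), and negative for SOD2. The other 8 did not pass: BIRC3, CXCL8 and TNFAIP2 had values of 0.18, 0.17 and 0.20 (adjusted p = 0.92, 0.69 and 0.78) and ICAM1 had -0.33 (adjusted p = 0.54), the sign of SOD2. CXCL6, a neighbour of SOD2 by pattern, had -0.49 (SE 0.16, adjusted p = 0.19). These references were chosen with results of these libraries known, so their direction is not independent evidence.

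Rows named as copies of the 10 genes (pseudogenes of SOD1, SOD2, GPX1, PRDX1 and PRDX3) held 27 counts in all over 11 rows and 12 libraries, and 7 of the rows had none. Reads that a copy could share with its parent were assigned by the authors' pseudoalignment, so levels of these 5 genes carry that uncertainty.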

How the data were processed

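The authors pseudoaligned reads with kallisto 0.44.0 (GRCh38, per the labels' processing notes) and deposited estimated counts summed per gene name, neither normalized nor length-scaled; the annotation release is not given in the sources used here. They hold whole numbers, and a row without a name (0.235% to 0.306% of counts) was left out. In R 4.3.3, genes whose counts summed to 10 or more in the libraries fitted were tested with edgeR 4.0.16 (TMM, quasi-likelihood F test, Benjamini-Hochberg), on 6 libraries for each comparison and on 12 for the interaction. The SE is the log2 fold change over the square root of F. CPM used TMM over 12 libraries, and log2 CPM a prior count of 2. With 3 libraries against 3, an exact two-sided permutation test cannot go below 0.1, so none is given. Members, lists and tests were chosen with earlier results of these data known. Named list genes were, per list and test, up to 3 called genes with the largest difference and a mean of at least 50 counts; neighbours were the 3 closest genes of each member past 2-fold. Some genes that these rules select are not reported here. Positions are from GENCODE 44. Alternatives were DESeq2 1.42.0, other scalings and filters, a fit on 12 libraries, the replicate block and each library left out. The steps were tested on simulated data.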

Additional observations from a re-analysis of the deposited data

Results flagged for a closer look

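The effect of KD with LPS minus that without LPS, tested as an interaction with edgeR on all 12 libraries, passed an adjusted p of 0.05 for 4 of the genes named here. SOD2 gave -0.81, since KD raised it by 1.19 without LPS and by 0.37 with LPS, and in CPM the sign was opposite. TXNRD1 gave 0.51 (SE 0.11, adjusted p = 0.020), with 1147 CPM in scramble, 653 CPM in KD, 928 CPM in LPS-treated scramble and 755 CPM in LPS-treated KD, so the gap between scramble and KD was narrower with LPS. That call was lost in 4 of 12 fits with a library left out (adjusted p up to 0.069). IL6 gave 1.17, with 52.5, 89.7, 132 and 508 CPM in the same groups. CCL2 gave 1.15, with 146, 132, 501 and 999.6 CPM, and KD did not pass the test for it without LPS (-0.15, adjusted p = 0.59).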

How the results depend on the processing

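For the 10 genes, 50 results were refitted 750 times. The result was the same in direction and side of the threshold under every alternative for 31, 2 calls were lost in some (GPX1 in KD with LPS, GPX4 under LPS in scramble), 8 results passed in some that had not passed, and 10 changed sign in some, on the log2 scale, none of them a called value. Of 89 results of list genes, 70 were the same throughout and 19 lost the call in some, with 0 changes of sign. The KD calls of SOD2, SOD3, CAT and PRDX6, those of GPX4 without and GPX3 with LPS, and both LPS calls of SOD2 held in all alternatives. The SOD2 interaction held in 12 of 12 fits with a library left out (-0.90 to -0.76) and in 7 other fits.

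Scaling to library size alone gave 4 genes higher in KD with LPS in place of 2 (adding GPX4 and PRDX1) and 1 raised by LPS in scramble in place of 2. It turned PRDX1 in KD without LPS to 0.072 (upper quartile 0.028), SOD1 in KD with LPS to 0.021, PRDX3 under LPS to -0.0074 in scramble and -0.0082 in KD, and the PRDX3 interaction to -0.00072 (upper quartile -0.019). DESeq2 and no filter gave 475 and 431 genes of the interaction in place of 219. Each gave 2 of the 10 genes raised by LPS in KD in place of 1, DESeq2 adding SOD1 and no filter adding GPX1. The SOD2 interaction in CPM was 215.2. The replicate number as a block gave 5 of the 10 genes raised by LPS in scramble (adding CAT, GPX3 and PRDX6) and 2 in KD (adding GPX1). It also added GPX4 to the genes higher in KD with LPS. Libraries with the same number deviated with correlations of -0.10 to 0.25, 4 of 12 pairs over 0.1. The labels do not state whether a shared number means a shared culture, and these correlations over all genes cannot decide it.

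With each library left out, genes raised by LPS in scramble numbered 1 to 5 (5 without scramble replicate 3) and genes higher in KD with LPS 1 to 3. All genes called under LPS in scramble numbered 1187 (without scramble replicate 2) to 2106, and 1461 without LPS-treated scramble replicate 3, against 2274. The interaction called 92 (without scramble replicate 2) to 243 genes, with 131, 136 and 116 without KD replicate 1 and LPS-treated KD replicates 2 and 3. Without LPS, KD values ran from -0.53 to 0.040 for GPX3 and -0.045 to 0.23 for GPX1. LPS values ran in scramble from -0.023 to 0.11 for PRDX3 and -0.016 to 0.25 for SOD3, and in KD from -0.20 to 0.12 for SOD3, -0.0024 to 0.077 for PRDX3 and -0.30 to 0.075 for GPX3. The PRDX3 interaction ran from -0.055 to 0.079. The cause of these changes was not tested. The limit that depth sets was not tested, and NOX4, at 7 to 27 counts per library, is among the lowest list genes named.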
